A study of Mus musculus with 16 samples.

Results

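Regrowth of the liver after part of it is removed is driven by secreted growth factors and by the receptors that hepatocytes carry for them. The genes described here are 10 of these: the mitogen gene Hgf and its receptor gene Met; the receptor gene Egfr with its ligand genes Areg, Hbegf and Tgfa; and the endothelial signal genes Wnt2, Wnt9b, Rspo3 and Angpt2. They were taken by name, with no threshold on measured values, though the list was drawn up with earlier results of these data known. A gene was read from a probe set annotated with that symbol alone, choosing the highest mean over all 16 arrays. Among the 30142 genes tested, 9 of the 10 had such a probe set, 1 each. Areg, the amphiregulin gene, was matched to no probe set in the annotation used, so no value is given for it.

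Total RNA of mouse liver was measured on Affymetrix arrays, 1 array per sample, in 4 groups of 4 arrays. Mice whose floxed Ppara is intact (fl/fl, called wild type in the labels) and mice with Ppara disrupted in hepatocytes only (Ppara△Hep) underwent partial hepatectomy (PHx) or a sham operation, and all livers were taken 12 h later. Ppara encodes PPARα, a nuclear receptor for fatty acids that switches on their oxidation, and the labels tie the choice of 12 h to the fat that accumulates in the liver after PHx. The labels used here do not give the Cre driver, the share of liver removed, or the age and sex of the mice. Whether every array stands for its own mouse is not stated, so the p-values here speak for array-to-array spread, which may include technical error.

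Hepatocyte growth factor is made by stellate and endothelial cells, is cut into its active form by proteases and binds MET on hepatocytes. EGFR is the other main mitogen receptor of hepatocytes, and its ligands are made as membrane-bound precursors that are shed by proteases. WNT2, WNT9B and the R-spondin RSPO3 come from endothelial cells around the central vein and keep β-catenin signalling active in neighbouring hepatocytes, while angiopoietin 2 comes from endothelial cells and competes with angiopoietin 1 at the receptor TIE2.

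Levels are log2 values after RMA, as deposited. A gene was called near background in a group when its mean was no higher than the 95th percentile of the 5222 negative control probe sets, taken per array and summarised by the median over the arrays of the group. That bound was 4.84 in sham fl/fl, 5.20 in PHx fl/fl, 4.89 in sham Ppara△Hep and 5.24 in PHx Ppara△Hep. By this rule 23412 of the 30142 genes (77.7%) lay near background in every group. The median over all probe sets was 2.02 to 2.08 on the sham arrays and 2.14 to 2.22 on the PHx arrays, and the median of the negative controls 1.81 to 2.01 and 1.94 to 2.12. Other controls were lower on the PHx arrays. Positive control medians were 5.82 to 6.06 after sham and 5.30 to 5.66 after PHx. Antigenomic background medians were 1.19 to 1.29 and 0.97 to 1.09, and ERCC spike-in medians 1.71 to 1.88 and 1.51 to 1.69. The part of these array-level shifts in the PHx changes was not tested. Ppara itself, as a check of the labels, lay at 6.45 to 7.02 on sham fl/fl arrays and 6.05 to 6.43 on sham Ppara△Hep arrays, and at 5.68 to 7.24 and 4.70 to 6.26 after PHx. The genotype difference of Ppara was -0.50 ± 0.33 (SE) after sham and -1.17 ± 0.33 after PHx, with limma adjusted p of 0.681 and 0.326, and the sham arrays of the genotypes did not overlap, as for 6.8% of all genes. Its probe set may lie partly outside the deleted part of the gene, which was not tested.

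Of the measured genes, Met and Egfr stood above background in all 4 groups. Hgf was above it in 3 groups and near background in PHx Ppara△Hep, and Tgfa was above it after sham and near background after PHx in both genotypes. Hbegf, Wnt2, Wnt9b, Rspo3 and Angpt2 were near background in all 4 groups, and for these 5 the array gives weak evidence of level and understates changes. After PHx, Met fell and Rspo3 rose in both genotypes, and Wnt9b rose in Ppara△Hep. That is 2 of 9 called in fl/fl and 3 of 9 in Ppara△Hep, at a limma adjusted p below 0.05 over all genes. Of all genes, 32.7% were called in fl/fl and 32.3% in Ppara△Hep, so the share called among the growth factor and receptor genes lay near the background share and is not a result about them as a group. None of the 9 differed by genotype at that threshold.

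**Figure D1:**
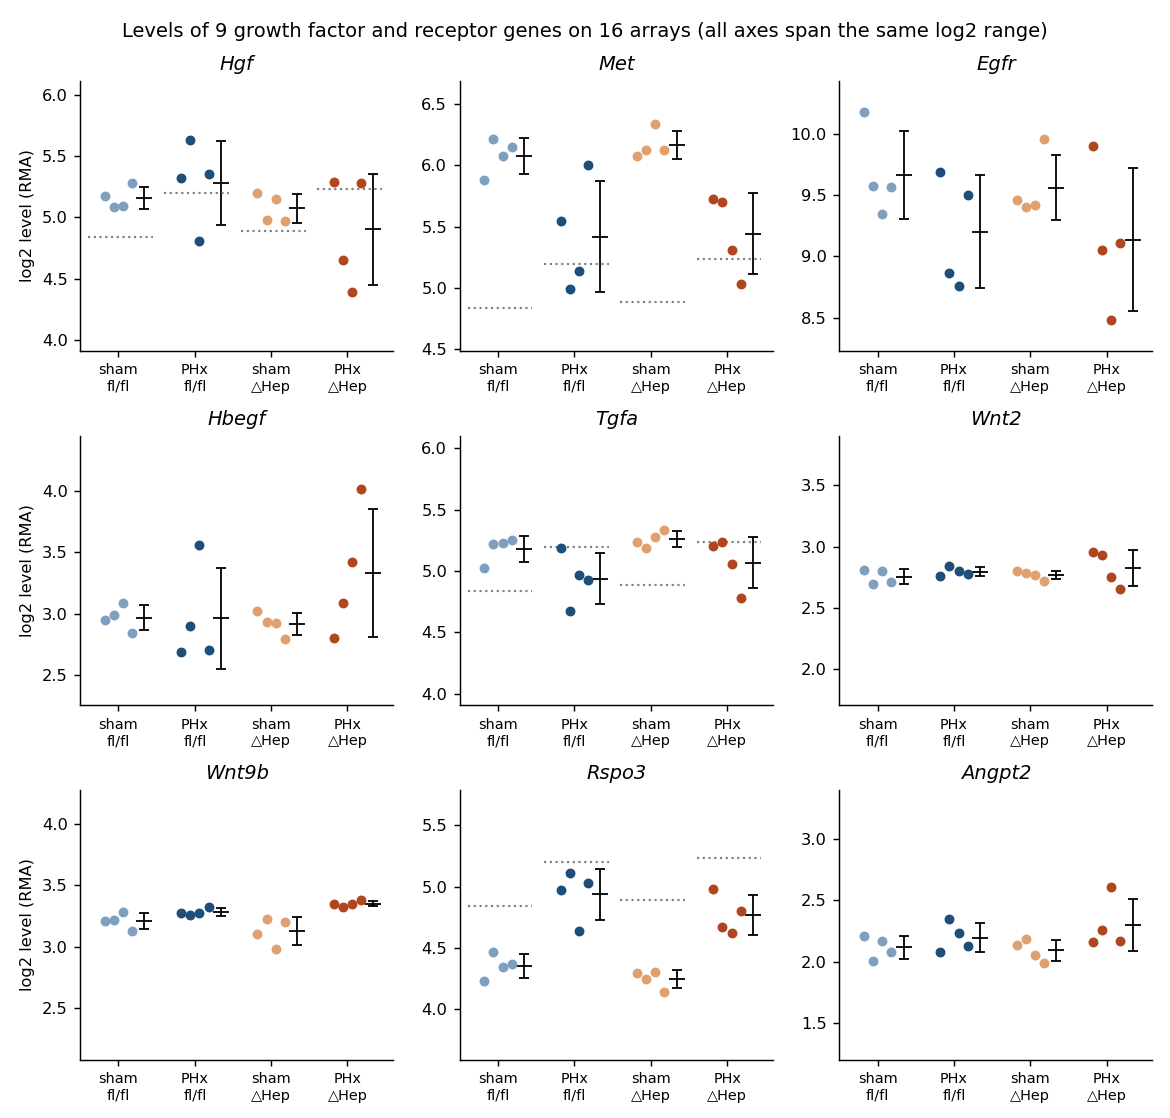
Log2 level (vertical axis, RMA) of the 9 measured genes on each of the 16 arrays (points), with group mean and SD (black bars, n = 4) and, where it falls inside the axis, the near-background bound of the group (dotted). Met is lower after PHx in both genotypes, with group means of 6.08 and 5.42 in fl/fl, and Rspo3 is higher but stays under the dotted bound.

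Met encodes the receptor tyrosine kinase for hepatocyte growth factor. Its levels were 5.88, 6.21, 6.08 and 6.15 on the sham fl/fl arrays and 5.54, 4.99, 5.14 and 6.01 on the PHx fl/fl arrays. In Ppara△Hep they were 6.08, 6.12, 6.33 and 6.13 after sham and 5.72, 5.70, 5.31 and 5.03 after PHx. In fl/fl 1 PHx array lay inside the sham range and the other 3 below it, whereas in Ppara△Hep all 4 PHx arrays lay below all 4 sham arrays. Of all genes, 32% had PHx and sham arrays that did not overlap, in each genotype. The change was -0.66 ± 0.19 on the log2 scale (SE; 95% interval -1.07 to -0.25; adjusted p = 0.0163) in fl/fl, a level that fell by 36.7%. In Ppara△Hep it was -0.72 ± 0.19 (95% interval -1.13 to -0.31; adjusted p = 0.00976), a level that fell by 39.4%. The call in fl/fl was lost with cyclic loess scaling (-0.49, adjusted p = 0.0595), without PHx fl/fl array 2 (-0.52, adjusted p = 0.056) and without PHx fl/fl array 3 (-0.56, adjusted p = 0.0502), and the two-sided exact permutation p was 0.0571. In Ppara△Hep the call stood under every alternative tried, with changes from -0.87 to -0.52. In whole-liver RNA, fewer cells of a type and less RNA per cell cannot be told apart. The mean of 10 hepatocyte markers was 10.46 after sham and 10.34 after PHx in fl/fl, and 10.45 and 10.35 in Ppara△Hep. After PHx 0 of them were called higher and 3 lower in each genotype, or 8 lower in each with array medians subtracted. With cyclic loess 1 was higher and 2 lower in fl/fl, and 0 and 3 in Ppara△Hep.

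The promoter of Met is shown because Met is the receptor that fell in both genotypes. It is the RefSeq window of the 250 bases before the transcript start, chr6:17463707-17463956 on the plus strand of GRCm38.p6, and capitals mark motif matches.
Met: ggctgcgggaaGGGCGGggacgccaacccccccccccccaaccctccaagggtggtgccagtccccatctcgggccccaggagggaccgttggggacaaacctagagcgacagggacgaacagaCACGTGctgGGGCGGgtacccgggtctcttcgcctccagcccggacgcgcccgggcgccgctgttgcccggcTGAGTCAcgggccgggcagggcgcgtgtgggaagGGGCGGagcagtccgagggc
The 6 motifs searched on both strands were AP-1 (TGANTCA), the cyclic AMP response element CRE (TGACGTCA), the E-box (CACGTG), the GC box (GGGCGG), the TATA box (TATAAA) and the PPAR response element. In Met the capitals are a GC box that starts 239 bases before the transcript start, an E-box at 126 bases, a GC box at 117 bases, an AP-1 match at 54 bases and a GC box at 20 bases. Over the 32851 RefSeq windows of this length, 6.75% held the AP-1 letters, 6.02% the E-box and 32.7% the GC box. The PPAR response element was found in 0.0335% of all windows and in 0 windows of the 7 genes described here that have one, which says only that those letters are absent there.

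Hgf, the gene of the MET ligand, gave no called change. Levels were 5.17, 5.09, 5.09 and 5.28 in sham fl/fl and 5.32, 5.63, 4.81 and 5.36 in PHx fl/fl. In Ppara△Hep they were 5.20, 4.98, 5.15 and 4.97 after sham and 5.29, 4.65, 4.39 and 5.28 after PHx. The PHx arrays straddled the sham range in both genotypes, and in Ppara△Hep they fell into a pair at 5.29 and 5.28 and a pair at 4.65 and 4.39. The PHx change was 0.12 ± 0.19 (95% interval -0.28 to 0.53; adjusted p = 0.656) in fl/fl and -0.17 ± 0.19 (-0.58 to 0.23; adjusted p = 0.526) in Ppara△Hep. Those intervals leave room for a rise or a fall of Hgf within their bounds.

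Egfr, the gene of the epidermal growth factor receptor, was far above background, over 99.3% to 99.7% of the negative controls on average in each group. Its levels were 10.18, 9.57, 9.35 and 9.56 in sham fl/fl and 9.68, 8.86, 8.76 and 9.50 in PHx fl/fl. In Ppara△Hep they were 9.46, 9.40, 9.42 and 9.96 after sham and 9.90, 9.05, 8.48 and 9.11 after PHx. The means after PHx were lower in both genotypes, but the arrays overlapped. The change was -0.46 ± 0.28 in fl/fl (95% interval -1.05 to 0.13; adjusted p = 0.216) and -0.42 ± 0.28 in Ppara△Hep (-1.01 to 0.17; adjusted p = 0.263), so neither passed.

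Tgfa, the gene of transforming growth factor alpha, an EGFR ligand that hepatocytes themselves make, stood at 5.03, 5.22, 5.23 and 5.25 in sham fl/fl and at 5.18, 4.67, 4.96 and 4.93 in PHx fl/fl. In Ppara△Hep its levels were 5.24, 5.19, 5.28 and 5.34 after sham and 5.20, 5.24, 5.05 and 4.78 after PHx. The ranges overlapped in both genotypes. The change was -0.24 ± 0.11 (95% interval -0.47 to -0.02; adjusted p = 0.0915) in fl/fl and -0.19 ± 0.11 (-0.42 to 0.03; adjusted p = 0.184) in Ppara△Hep. With array medians subtracted it passed in both, at -0.35 (adjusted p = 0.0202) and -0.34 (adjusted p = 0.023). In fl/fl it also passed with the negative control medians subtracted (-0.36, adjusted p = 0.0287) and without PHx fl/fl array 1 (-0.33, adjusted p = 0.0307). Cyclic loess gave -0.08 (adjusted p = 0.559) in fl/fl and -0.002 (adjusted p = 0.991) in Ppara△Hep, so the size of the Tgfa change depended on the scaling.

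Hbegf, the gene of heparin-binding EGF-like growth factor, was near background in every group, with means between 2.92 and 3.33. The PHx Ppara△Hep arrays read 2.80, 3.08, 3.42 and 4.02 and the sham Ppara△Hep arrays 3.02, 2.93, 2.92 and 2.80. In fl/fl the PHx arrays read 2.69, 2.90, 3.56 and 2.70 against 2.95, 2.99, 3.09 and 2.84 after sham. On 1 PHx array in fl/fl and 3 in Ppara△Hep, Hbegf lay above all sham arrays of its genotype, and the others lay within or below the sham range. The change was 0.42 ± 0.22 (95% interval -0.05 to 0.88; adjusted p = 0.163) in Ppara△Hep and 0.00 ± 0.22 (-0.47 to 0.46; adjusted p = 0.989) in fl/fl. Leaving out 1 array at a time gave changes of 0.19 to 0.59 in Ppara△Hep, with adjusted p of 0.0431 to 0.497. Only the fit without PHx Ppara△Hep array 1 passed (0.59, adjusted p = 0.0431).

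Rspo3, the gene of an R-spondin that strengthens WNT signalling by sparing Frizzled receptors from removal, was the gene with the lowest adjusted p of the 9 in each PHx comparison. Levels were 4.23, 4.47, 4.34 and 4.37 in sham fl/fl and 4.98, 5.11, 4.64 and 5.02 in PHx fl/fl. In Ppara△Hep they were 4.29, 4.25, 4.31 and 4.14 after sham and 4.98, 4.67, 4.62 and 4.80 after PHx. All PHx arrays lay above all sham arrays of the same genotype. The rise was 0.59 ± 0.10 (SE; 95% interval 0.38 to 0.79; adjusted p = 0.000435) in fl/fl. In Ppara△Hep it was 0.52 ± 0.10 (0.31 to 0.73; adjusted p = 0.000972). No fold is given, since both sides lie near background. Rspo3 was above 92.4% of the negative controls in sham fl/fl and 93.5% in PHx fl/fl, so its place among the controls moved little while their upper end rose from 4.84 to 5.20. Both rises passed under every alternative that tested Rspo3, at 0.46 to 0.73 in fl/fl and 0.37 to 0.68 in Ppara△Hep.

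Wnt9b, a WNT ligand of central vein endothelium, moved little and lay near background in every group. Its levels were 3.21, 3.22, 3.28 and 3.13 in sham fl/fl, 3.27, 3.26, 3.28 and 3.32 in PHx fl/fl, 3.10, 3.23, 2.98 and 3.20 in sham Ppara△Hep and 3.35, 3.32, 3.35 and 3.38 in PHx Ppara△Hep. The PHx Ppara△Hep arrays lay above all 8 sham arrays, and the lowest of them and the highest PHx fl/fl array were equal to 2 decimals. The change in Ppara△Hep was 0.22 ± 0.05 (95% interval 0.11 to 0.33; adjusted p = 0.00505), and in fl/fl 0.07 ± 0.05 (-0.04 to 0.18; adjusted p = 0.324). The call in Ppara△Hep depended on the scaling: it was lost with array medians subtracted (0.07, adjusted p = 0.23) and with negative control medians subtracted (0.18, adjusted p = 0.096). With cyclic loess the change in fl/fl passed as well, at 0.18 (adjusted p = 0.0109), and its sign turned with array medians subtracted (-0.04) and with negative control medians subtracted (-0.05). Wnt9b exceeded 77.5% of the negative controls in sham Ppara△Hep and 78.1% in PHx Ppara△Hep.

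The promoter window of Wnt9b, the other called gene with a RefSeq window, is chr11:103749822-103750071 on the minus strand of GRCm38.p6, again the 250 bases before the start. It is shown for contrast with Met, since of the 6 motifs it holds only GC boxes.
Wnt9b: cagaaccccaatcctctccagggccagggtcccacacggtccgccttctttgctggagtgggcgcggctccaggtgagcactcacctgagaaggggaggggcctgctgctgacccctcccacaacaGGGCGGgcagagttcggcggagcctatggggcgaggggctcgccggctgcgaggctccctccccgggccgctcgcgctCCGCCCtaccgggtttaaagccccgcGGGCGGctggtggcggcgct
The capitals mark GC boxes that start 124, 46 and 20 bases before the transcript start, the one at 46 bases on the opposite strand.

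Wnt2, the other WNT ligand of liver endothelium on the list, and Angpt2, the gene of angiopoietin 2, were near background and not called. Wnt2 had means of 2.75 ± 0.06 (SD, n = 4) in sham fl/fl, 2.80 ± 0.04 in PHx fl/fl, 2.77 ± 0.04 in sham Ppara△Hep and 2.83 ± 0.14 in PHx Ppara△Hep. Angpt2 had means of 2.12 ± 0.09, 2.20 ± 0.12, 2.09 ± 0.09 and 2.30 ± 0.21 in the same order. The largest PHx change of the pair was that of Angpt2 in Ppara△Hep, 0.21 ± 0.09 (95% interval 0.01 to 0.41; adjusted p = 0.0996), and 1 array of that group, at 2.61, stood above the other 3, at 2.16 to 2.26. The change of Wnt2 was 0.04 ± 0.06 in fl/fl and 0.06 ± 0.06 in Ppara△Hep, with adjusted p of 0.635 and 0.516.

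**Figure D2:**
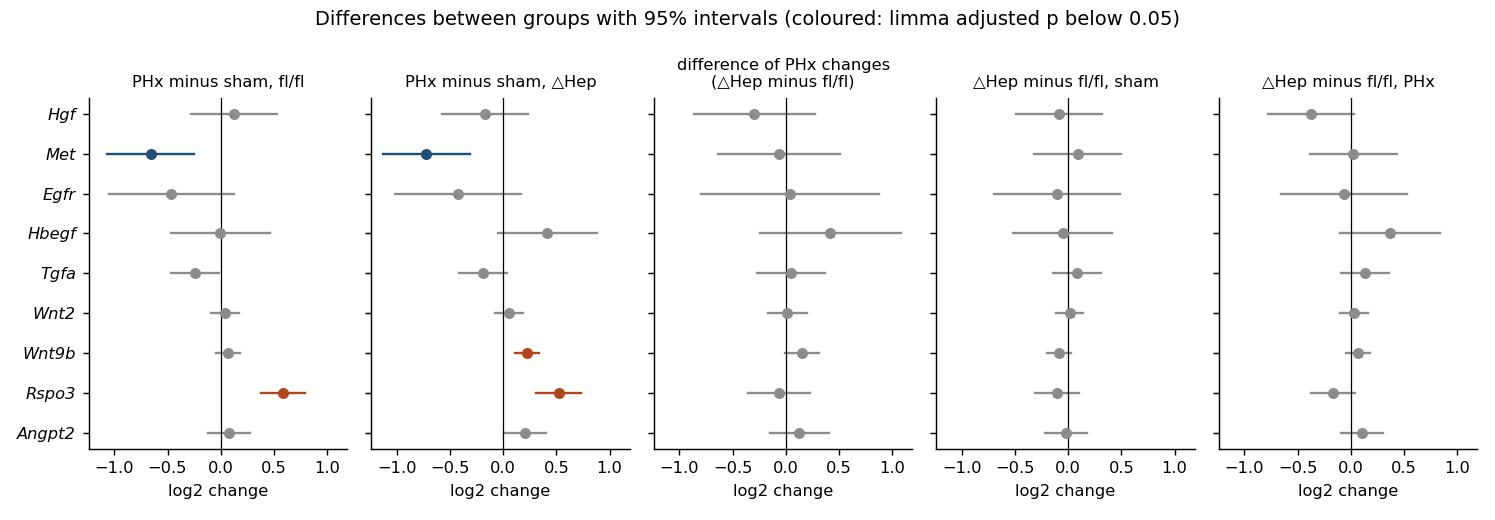
Log2 difference between groups (horizontal axis) with its 95% interval for the 9 measured genes in 5 comparisons, coloured where the limma adjusted p is below 0.05. Met is lower and Rspo3 higher after PHx in both genotypes, Wnt9b is higher in Ppara△Hep, and every interval in the 3 genotype panels spans 0.

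The genotype comparisons asked whether loss of hepatocyte PPARα changed these genes before or after PHx, or changed their response to it. Of the 9 genes, 0 were called in each of the comparisons: Ppara△Hep against fl/fl after sham, the same after PHx, the difference of the PHx changes, and the genotype difference averaged over both operations. None had an unadjusted limma p below 0.05 in any of them either. The shares of all genes called were 0.0133% after sham, 0.143% after PHx, 0% for the difference of the PHx changes and 0.219% for the average. The largest difference after PHx was that of Hgf, lower in Ppara△Hep by -0.38 ± 0.19 (95% interval -0.78 to 0.03; adjusted p = 0.696), followed by Hbegf, higher by 0.37 ± 0.22 (-0.10 to 0.84; adjusted p = 0.758). Both pairs of groups overlapped. The PHx changes of Met differed between genotypes by -0.06 ± 0.27 (-0.64 to 0.51) and those of Rspo3 by -0.06 ± 0.14 (-0.36 to 0.23), so differences of that size remain possible. For Wnt9b, called in Ppara△Hep and not in fl/fl, the difference of the changes was 0.15 ± 0.07 (-0.01 to 0.31; adjusted p = 0.472) and does not pass. After PHx the Wnt9b arrays of the genotypes did not overlap, though they touched to 2 decimals, at a difference of 0.07 ± 0.05 (adjusted p = 0.818; two-sided exact permutation p = 0.0286, the smallest that 4 against 4 arrays can give), and 3.73% of all genes share such a separation.

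The arrays of a group agreed less after PHx for most of these genes. The SD within groups over the 8 PHx arrays, divided by that over the 8 sham arrays, was 4.90 for Hbegf, 3.83 for Hgf and 3.04 for Met, against a median of 1.22 over all genes. Those ratios stand at the 98.6, 96.9 and 93.5 percentiles of all genes. The ratio was 2.44 for Tgfa, 2.11 for Rspo3 and for Wnt2, 1.90 for Angpt2 and 1.67 for Egfr, and for Wnt9b it was 0.28, so Wnt9b alone of the 9 was tighter after PHx. These ratios are a description without a test.

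For each growth factor and receptor gene above background in some group, the 3 genes that followed it most closely are named. They had the highest Pearson correlation with it over the 16 arrays, after subtraction of group means. They are a description with no p, since the points share arrays and their scaling. Each set of 3 was picked as the highest among all genes tested, so high values follow in part from the choice. Hgf was near background in PHx Ppara△Hep, and Tgfa after PHx in both genotypes. Met was followed by Sel1l3 (Pearson r = 0.976, Spearman rho = 0.991), Rmi1 (0.968 and 0.956) and Tor1b (0.967 and 0.932). Hgf was followed by Vipr1 (r = 0.913, rho = 0.871), M1ap (0.882 and 0.832) and Cfap126 (0.864 and 0.882). Egfr was followed by Cxcl11 (r = 0.893, rho = 0.944), 1700022N22Rik (0.877 and 0.785) and Gnat1 (0.873 and 0.741). The nearest genes of Tgfa were Scarb2 (r = 0.915, rho = 0.838), Igsf5 (0.896 and 0.735) and Mvd (0.888 and 0.765).

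The wider pathways were read from 8 gene lists. Genes of these lists with a called change of at least 0.58 (log2) are named, at most 6 per list and comparison, with their values in both genotypes. Of these, Lrig1, Lgr4, Kdr, Klb and Fgfr4 were above background after sham and near it after PHx, in both genotypes. Genes named only because a count is 5 or fewer were picked after their values were seen. Over all genes the median PHx change was -0.04 in fl/fl and 0.01 in Ppara△Hep, with 11.9% called higher and 20.8% lower in fl/fl and 14.8% and 17.5% in Ppara△Hep. With array medians subtracted, 15420 of 30142 genes were called in fl/fl and 15350 in Ppara△Hep, 14.8% and 13.9% of these calls being higher. With cyclic loess 7512 and 8019 were called, 56.7% and 53.7% of them higher. List counts under these scalings are to be read beside those figures. In each genotype 32% of all genes had PHx and sham arrays that did not overlap. Genes named for a called change are more likely to separate in this way. The 2 PHx comparisons use different arrays, so neither shares controls with the other.

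Of the genes around HGF and MET, 23 of 24 were measured, and after PHx 1 rose and 10 fell in fl/fl while 1 rose and 11 fell in Ppara△Hep, or 47.8% and 52.2% called. The list's median change was -0.11 in fl/fl and -0.17 in Ppara△Hep. Hgfac, the gene of the protease HGF activator, went from 7.53, 7.57, 7.61 and 7.67 to 6.66, 6.75, 7.14 and 6.75 in fl/fl, all PHx arrays below all sham arrays. That is a change of -0.77 ± 0.13 (adjusted p = 0.000491), and in Ppara△Hep it was -1.06 ± 0.13 (adjusted p = 2.39e-05), again without overlap. Hpn, the gene of hepsin, another protease that activates HGF, changed by -0.48 ± 0.08 in fl/fl (adjusted p = 0.000527) and -0.65 ± 0.08 in Ppara△Hep (adjusted p = 2.99e-05). Serpinf2, the gene of the plasmin inhibitor α2-antiplasmin, fell by 0.91 in fl/fl and by 0.92 in Ppara△Hep (SE 0.12 each; adjusted p = 4.11e-05 and 3.23e-05). Plxnb2, the gene of a semaphorin receptor that can associate with MET, changed by -0.72 ± 0.26 in fl/fl (adjusted p = 0.0434) and -1.07 ± 0.26 in Ppara△Hep (adjusted p = 0.00541). In fl/fl that call was lost with cyclic loess (-0.54, adjusted p = 0.118) and with all probe sets tested (adjusted p = 0.0552). It was also lost when any 1 of the fl/fl arrays other than PHx fl/fl array 4 was left out (-0.79 to -0.54). Sdc1, the gene of the heparan sulfate proteoglycan syndecan 1, was the 1 gene that rose, by 0.80 ± 0.17 in fl/fl (adjusted p = 0.00294) and 0.65 ± 0.17 in Ppara△Hep (adjusted p = 0.00996). With cyclic loess 2 genes of this list rose and 6 fell in fl/fl.

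**Figure D3:**
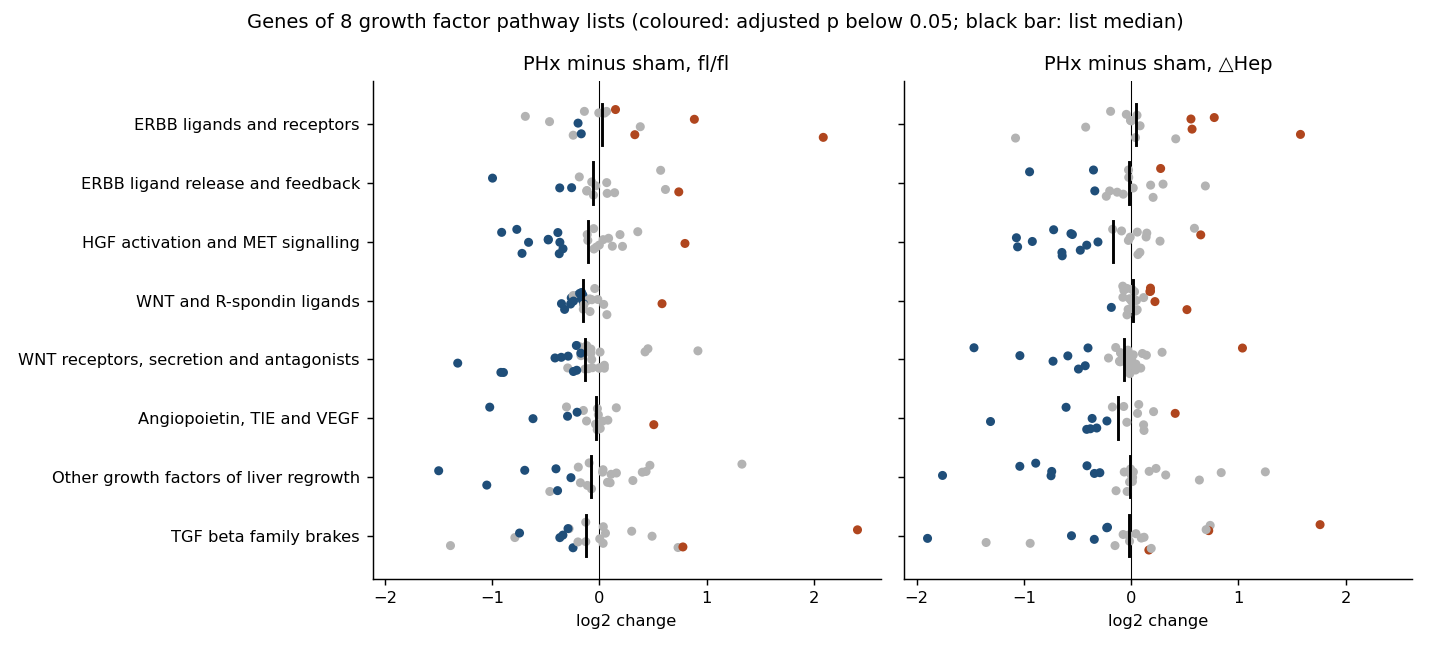
Log2 change after PHx (horizontal axis) of each gene of the 8 lists, fl/fl at left and Ppara△Hep at right, coloured where the limma adjusted p is below 0.05, with the list median as a black bar. The HGF and MET list has 10 genes lower and 1 higher in fl/fl, and 11 and 1 in Ppara△Hep.

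Among the ligands and receptors of the ERBB family, to which EGFR belongs, 14 of 15 genes were measured. In fl/fl 4 rose (Btc, Epgn, Nrg1 and Nrg4) and 2 fell (Nrg2 and Erbb2), and in Ppara△Hep 4 rose (Ereg, Btc, Nrg1 and Nrg4) and 0 fell. Only Tgfa, Nrg4, Egfr and Erbb3 of the 14 were above background in any group. Nrg4, the gene of neuregulin 4, a ligand of ERBB4, read 5.08, 3.62, 3.45 and 4.0 in sham fl/fl and 6.20, 6.94, 5.79 and 5.56 in PHx fl/fl. In Ppara△Hep it read 4.07, 3.56, 3.56 and 4.38 after sham and 5.05, 4.94, 6.42 and 5.47 after PHx. Every PHx array stood above every sham array of the same genotype, with changes of 2.09 ± 0.39 (adjusted p = 0.00111) and 1.58 ± 0.39 (adjusted p = 0.00669). Nrg4 was near background in both sham groups, with means of 4.04 and 3.89, so these changes may understate its rise. Btc, the gene of the EGFR ligand betacellulin, rose by 0.89 ± 0.25 in fl/fl (adjusted p = 0.0137) and by 0.77 ± 0.25 in Ppara△Hep (adjusted p = 0.0268), though it stayed near background in group means. The Btc call in Ppara△Hep was lost when sham Ppara△Hep array 3 or 4, or PHx Ppara△Hep array 2 or 3, was left out, with changes of 0.55 to 0.76. With array medians subtracted the count over the ERBB list turned, to 2 higher and 4 lower in fl/fl and 4 higher and 5 lower in Ppara△Hep.

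The 15 genes of ERBB ligand release and feedback showed 1 rise and 3 falls in each genotype. Those that fell were Lrig1, Lrig3 and Socs4 in both, and those that rose were Cbl in fl/fl and Rhbdf1 in Ppara△Hep. With cyclic loess the counts turned to 2 higher and 1 lower in fl/fl and 2 of each in Ppara△Hep. Lrig1 encodes a membrane protein that lowers the amount of EGFR. It changed by -1.0 ± 0.17 in fl/fl (adjusted p = 0.000506), from 5.37, 5.18, 5.35 and 5.25 to 4.40, 4.13, 3.93 and 4.73, with no overlap. In Ppara△Hep it changed by -0.95 ± 0.17 (adjusted p = 0.000678), also without overlap. Cbl, the gene of a ubiquitin ligase of activated receptors, changed by 0.74 ± 0.25 in fl/fl (adjusted p = 0.0342) and by -0.23 ± 0.25 in Ppara△Hep (adjusted p = 0.518). Its sham arrays lay at 4.45 to 5.11 in fl/fl and 5.37 to 6.08 in Ppara△Hep, without overlap, as for 6.8% of all genes. That genotype difference (0.83 ± 0.25, adjusted p = 0.408) and the difference of the PHx changes (-0.97 ± 0.35, adjusted p = 0.364) did not pass. In fl/fl its sham and PHx arrays overlapped, and without PHx fl/fl array 3 the change was 0.45 (adjusted p = 0.087). The call was also lost without sham fl/fl array 1, 2 or 4 (0.64 to 0.75) and when only the fl/fl groups were fitted (adjusted p = 0.069).

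Around the endothelial WNT ligands, all 23 WNT and R-spondin genes were measured and all 23 were near background in every group. In fl/fl 1 rose (Rspo3) and 11 fell, and in Ppara△Hep 5 rose (Wnt1, Wnt8a, Wnt9b, Wnt10a and Rspo3) and 1 fell (Wnt5b). These counts turned with the scaling. With cyclic loess they were 2 higher and 7 lower in fl/fl and 3 higher and 0 lower in Ppara△Hep, and with array medians subtracted 1 higher and 19 lower in fl/fl and 1 higher and 10 lower in Ppara△Hep. Rspo3 was the 1 gene of this list that reached a change of 0.58, in fl/fl.

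Of 32 WNT receptors, secretion genes and antagonists, 31 were measured, of which 0 rose and 10 fell in fl/fl and 1 rose and 7 fell in Ppara△Hep. With array medians subtracted the counts were 0 higher and 21 lower in fl/fl and 1 higher and 16 lower in Ppara△Hep, and with cyclic loess 2 higher and 5 lower in fl/fl. The counts over all genes moved with these scalings as well. Of these 31 genes 26 were near background in all groups. Lgr4, the gene of an R-spondin receptor, read 5.59, 6.08, 5.86 and 5.80 in sham fl/fl and 4.63, 5.12, 4.61 and 5.29 in PHx fl/fl, a change of -0.92 ± 0.15 (adjusted p = 0.000398), and in Ppara△Hep the change was -1.04 ± 0.15 (adjusted p = 0.000126). Lgr5, the gene of another R-spondin receptor and near background in all groups, read 3.91, 4.18, 4.41 and 4.10 against 2.99, 2.48, 2.42 and 3.43 in fl/fl. It changed by -1.32 ± 0.28 (adjusted p = 0.00241), and by -1.47 ± 0.28 in Ppara△Hep (adjusted p = 0.00103). Notum, the gene of a secreted enzyme that inactivates WNT ligands and is itself a WNT target, was also near background in all groups and changed by -0.89 ± 0.12 in fl/fl (adjusted p = 6.83e-05) and -0.73 ± 0.12 in Ppara△Hep (adjusted p = 0.000372). None of Lgr4, Lgr5 and Notum had PHx arrays that overlapped the sham arrays, in either genotype, as for 32% of all genes in each. Lrp6, the gene of a WNT co-receptor, changed by -0.29 ± 0.10 in fl/fl (adjusted p = 0.0303) and -0.59 ± 0.10 in Ppara△Hep (adjusted p = 0.000312). The fl/fl call was lost with cyclic loess (-0.11, adjusted p = 0.371) and on leaving out PHx fl/fl array 1, 2 or 3, or array 1 or 2 of sham fl/fl (-0.30 to -0.25). Ror1, the gene of a WNT5A receptor and near background in all groups, changed by 0.92 ± 0.36 in fl/fl (adjusted p = 0.0616) and by 1.04 ± 0.36 in Ppara△Hep (adjusted p = 0.038). That call was lost without any 1 of the sham Ppara△Hep arrays (0.99 to 1.08) and without PHx Ppara△Hep array 3 (0.78) or 4 (0.81). It was also lost when only the Ppara△Hep groups were fitted (adjusted p = 0.0618).

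For the angiopoietin, TIE and VEGF genes, 16 of 17 were measured, with 1 higher and 4 lower in fl/fl and 1 higher and 7 lower in Ppara△Hep, or with cyclic loess 2 higher and 2 lower in fl/fl and 2 higher and 3 lower in Ppara△Hep. Kdr, the gene of the main VEGF receptor of endothelium, read 5.61, 5.80, 5.90 and 5.93 in sham fl/fl and 4.98, 4.55, 4.50 and 5.13 in PHx fl/fl. In Ppara△Hep it read 5.80, 5.93, 5.96 and 5.66 after sham and 5.11, 4.76, 4.12 and 4.12 after PHx. The groups did not overlap, with changes of -1.02 ± 0.20 (adjusted p = 0.00143) and -1.31 ± 0.20 (adjusted p = 0.000178). The gene that rose in both genotypes was Flt1, the gene of another VEGF receptor, by 0.51 ± 0.08 in fl/fl (adjusted p = 0.000309) and 0.41 ± 0.08 in Ppara△Hep (adjusted p = 0.00142). Vegfb, the gene of a VEGF family ligand, changed by -0.62 ± 0.08 in fl/fl (adjusted p = 6.62e-05) and -0.41 ± 0.08 in Ppara△Hep (adjusted p = 0.00161). Flt1 and Vegfb were near background in all groups. Tek, which encodes the angiopoietin receptor TIE2 and was near background, changed by -0.31 ± 0.18 in fl/fl (adjusted p = 0.214) and -0.61 ± 0.18 in Ppara△Hep (adjusted p = 0.0191), a call lost with cyclic loess (-0.47, adjusted p = 0.0706), without sham Ppara△Hep array 3 (-0.56) and without PHx Ppara△Hep array 3 (-0.42) or 4 (-0.55).

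**Figure D4:**
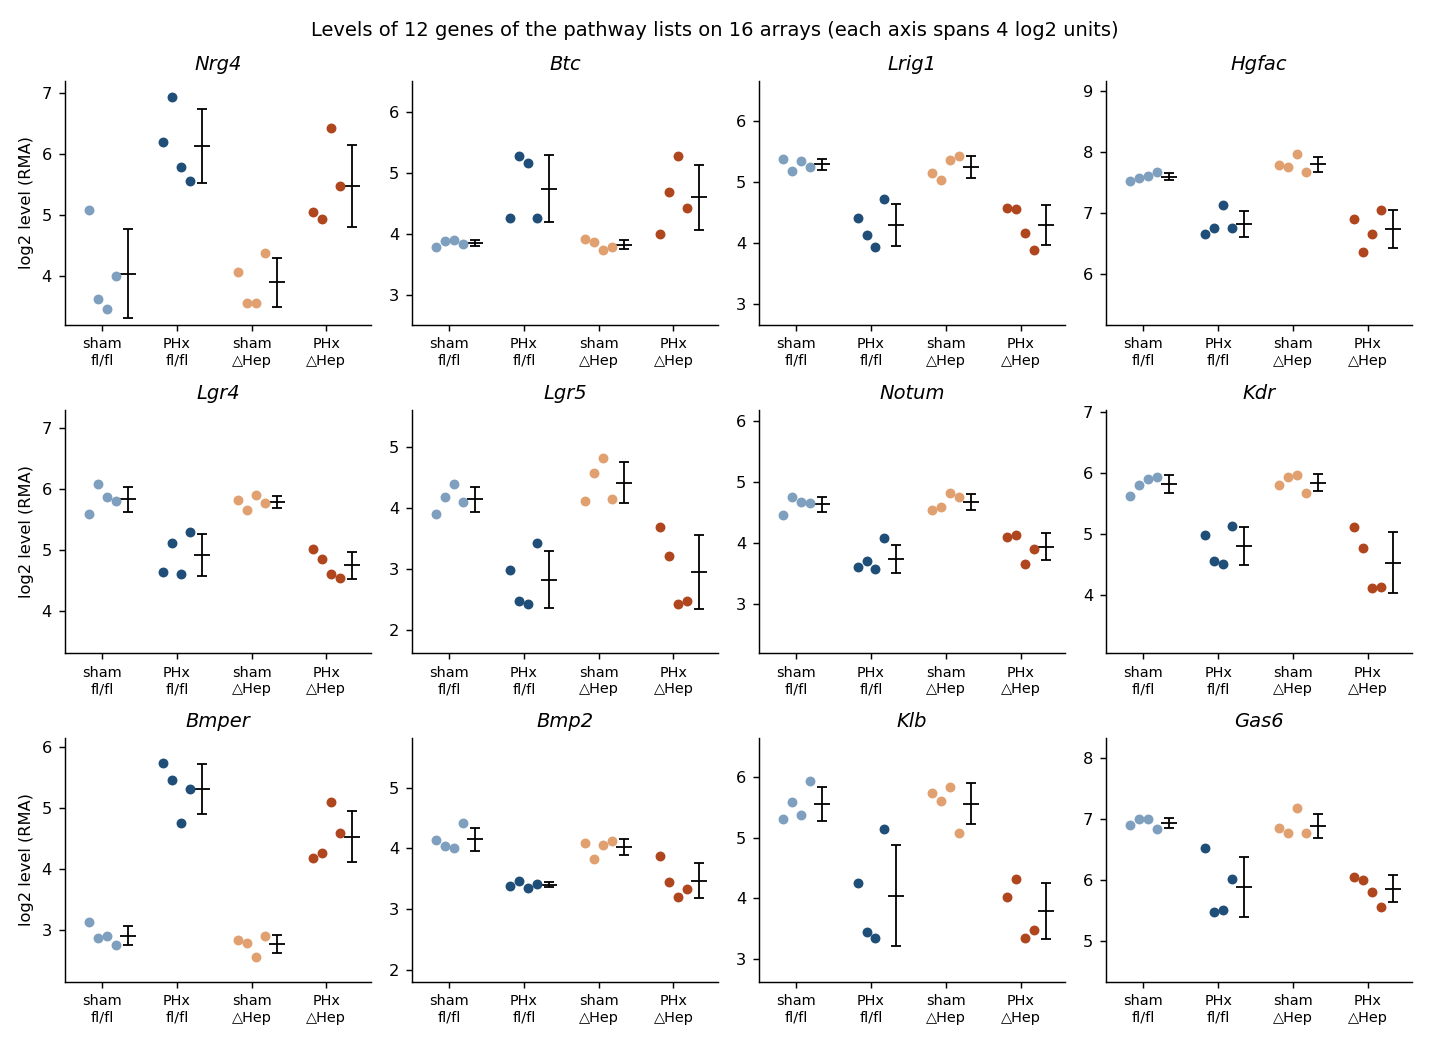
Log2 level (vertical axis, RMA) of 12 genes of the lists on each of the 16 arrays (points), with group mean and SD (black bars, n = 4). Nrg4, Btc and Bmper are higher after PHx in both genotypes, and the other 9 are lower. Near-background bounds are not drawn. Nrg4 is near background after sham, Bmper in all groups but PHx fl/fl, and Btc, Lgr5, Notum and Bmp2 in all 4 groups. Lrig1, Lgr4, Kdr and Klb are near background after PHx.

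Other growth factor genes of liver regrowth were measured for 23 of 27, with 0 higher and 6 lower in fl/fl and 0 higher and 8 lower in Ppara△Hep. Klb, the gene of β-Klotho, the co-receptor of FGF15 and FGF21, changed by -1.50 ± 0.33 (adjusted p = 0.00364) in fl/fl and -1.76 ± 0.33 (adjusted p = 0.00108) in Ppara△Hep, without overlap. Gas6, the gene of the ligand of the receptor AXL, fell by 1.05 and 1.04 (SE 0.19 each; adjusted p = 0.000782 and 0.000774), and Ghr, the growth hormone receptor gene, by 0.70 and 0.75 (SE 0.18 each; adjusted p = 0.00838 and 0.00515). Fgf1 changed by -0.46 ± 0.22 in fl/fl (adjusted p = 0.13) and -0.89 ± 0.22 in Ppara△Hep (adjusted p = 0.00738). Fgfr4, the main FGF receptor gene of hepatocytes, changed by -0.39 ± 0.13 in fl/fl (adjusted p = 0.0317) and -0.74 ± 0.13 in Ppara△Hep (adjusted p = 0.000572). The Fgfr4 call in fl/fl was lost with cyclic loess (-0.23, adjusted p = 0.19) and on leaving out PHx fl/fl array 1 or 4, or array 3 or 4 of sham fl/fl (-0.37 to -0.32). With cyclic loess 1 rose and 4 fell in fl/fl and 4 rose and 6 fell in Ppara△Hep.

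The list of the TGFβ family, some of whose members slow hepatocyte growth, also holds receptors and binders of the family's ligands. All 20 listed genes were measured, with 2 higher and 5 lower in fl/fl and 3 higher and 5 lower in Ppara△Hep. The 2 higher in fl/fl were the binder genes Bmper and Fst. Bmper, the gene of a secreted binder of bone morphogenetic proteins, had the largest change of the named genes in fl/fl. Its levels went from 3.12, 2.87, 2.89 and 2.74 to 5.73, 5.45, 4.75 and 5.31 in fl/fl and from 2.83, 2.77, 2.56 and 2.90 to 4.17, 4.26, 5.09 and 4.59 in Ppara△Hep. Sham and PHx arrays lay well apart, with changes of 2.41 ± 0.20 (adjusted p = 3.13e-07) and 1.76 ± 0.20 (adjusted p = 1.06e-05). Bmp2, which sinusoidal endothelium makes, changed by -0.74 ± 0.12 in fl/fl (adjusted p = 0.000373) and -0.56 ± 0.12 in Ppara△Hep (adjusted p = 0.00288). Inhbc, an activin subunit gene of hepatocytes, changed by -1.39 ± 0.52 in fl/fl (adjusted p = 0.0519) and -1.90 ± 0.52 in Ppara△Hep (adjusted p = 0.0114). Fst, the gene of the activin binder follistatin, changed by 0.78 ± 0.28 in fl/fl (adjusted p = 0.0412) and 0.70 ± 0.28 in Ppara△Hep (adjusted p = 0.065). Inhbb, an activin subunit gene, changed by 0.49 ± 0.23 in fl/fl (adjusted p = 0.108) and 0.72 ± 0.23 in Ppara△Hep (adjusted p = 0.0235). Bmp2, Fst and Inhbb were near background in all groups, and Bmper in all but PHx fl/fl. The Fst call was lost without any 1 of the sham fl/fl arrays (0.76 to 0.79) and without PHx fl/fl array 2 (0.64) or 3 (0.71). It was also lost with all probe sets tested (adjusted p = 0.0525). The Inhbb call was lost without sham Ppara△Hep array 3 (0.71) or 4 (0.70) and without PHx Ppara△Hep array 4 (0.61). With cyclic loess the counts over this list turned, to 4 higher and 2 lower in fl/fl and 4 higher and 3 lower in Ppara△Hep.

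Of the 165 genes on the 8 lists, 61 were called after PHx in fl/fl and 58 in Ppara△Hep. Of all genes, 32.7% and 32.3% were called in these comparisons. Before adjustment, 51.5% and 45.5% of the lists' genes had a limma p below 0.05 after PHx, against 43.1% and 42.3% of all genes. The lists were not tested as sets. In each genotype comparison and for the difference of the PHx changes, limma called 0 of the 165. At an unadjusted p below 0.05 there were 25 of 165 by genotype after sham, 12 after PHx, 23 for the difference of the changes and 9 for the average over operations. These are 15.2%, 7.27%, 13.9% and 5.45% of the lists' genes, against 9.26%, 7.47%, 11.3% and 5.83% of all genes.

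Since WNT2, WNT9B, RSPO3 and angiopoietin 2 are made by non-parenchymal cells, markers of those cells are given beside them. Of 12 markers of liver sinusoidal endothelium, 9 were lower and 1 (Lyve1) higher after PHx in each genotype, with median changes of -0.66 and -0.70. Of all genes, 20.8% were called lower in fl/fl and 17.5% in Ppara△Hep. Stab1, Gpr182 and Bmp2 were near background in all groups. In PHx fl/fl 6 of the 12 were near background and in PHx Ppara△Hep 7, against 3 in each sham group. Kdr and Bmp2 are among these 12, and with cyclic loess the count in fl/fl was 3 higher and 6 lower. The mean of the list ran from 5.54 to 5.65 in sham fl/fl, 5.12 to 5.17 in PHx fl/fl, 5.51 to 5.59 in sham Ppara△Hep and 4.92 to 5.21 in PHx Ppara△Hep, and its sum from 66.5 to 67.8, 61.5 to 62.0, 66.1 to 67.1 and 59.0 to 62.6. Rspo3 rose on the PHx arrays, where this list was lower. None of Wnt2, Wnt9b and Angpt2 was called lower there, but they lay near background in every group, where a fall would be understated. Of 10 markers of central vein and other endothelium, 8 were near background (Pecam1, Vwf, Tek, Tie1, Thbd, Lhx6, Selp and Cdh13), with 1 higher and 1 lower in each genotype (2 higher and 0 lower with cyclic loess, 1 higher and 4 lower in Ppara△Hep with array medians subtracted). The sum ran from 40.9 to 41.8 in sham fl/fl and 40.2 to 44.1 in PHx fl/fl, and from 40.7 to 41.5 and 41.4 to 42.7 in Ppara△Hep. Stellate and fibroblast markers, from cells that make HGF, were lower for 7 of 12 in fl/fl and 5 of 12 in Ppara△Hep, with 0 higher. With cyclic loess 4 were lower in each genotype and 1 was higher in Ppara△Hep, and with array medians subtracted 10 and 11 were lower. The sum over these markers ran from 54.8 to 56.7 in sham fl/fl, 50.7 to 52.0 in PHx fl/fl, 54.5 to 57.6 in sham Ppara△Hep and 48.5 to 52.4 in PHx Ppara△Hep, and Des, Pdgfrb, Col1a1, Col1a2, Col3a1, Hand2 and Ngfr were near background throughout. In each PHx group 11 of these 12 markers were near background. Kupffer cell markers were lower for 5 of 12 in fl/fl and 9 of 12 in Ppara△Hep, with 0 higher and sums of 60.6 to 67.2, 56.6 to 61.2, 63.2 to 68.6 and 56.6 to 61.7 in the same order of groups. The counts lower in fl/fl and Ppara△Hep were 3 and 5 with cyclic loess, 7 and 10 with array medians subtracted and 6 and 8 with negative control medians subtracted. Of the Kupffer cell markers, Timd4, Adgre1, Marco and C1qc were near background in all groups, and 7 of 12 in each PHx group. Of 6 cholangiocyte markers 5 were near background in all groups, as were all markers of neutrophils, pancreas and adipocytes. The part of these cell type markers in the changes of the growth factor and receptor genes was not tested.

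**Figure D5:**
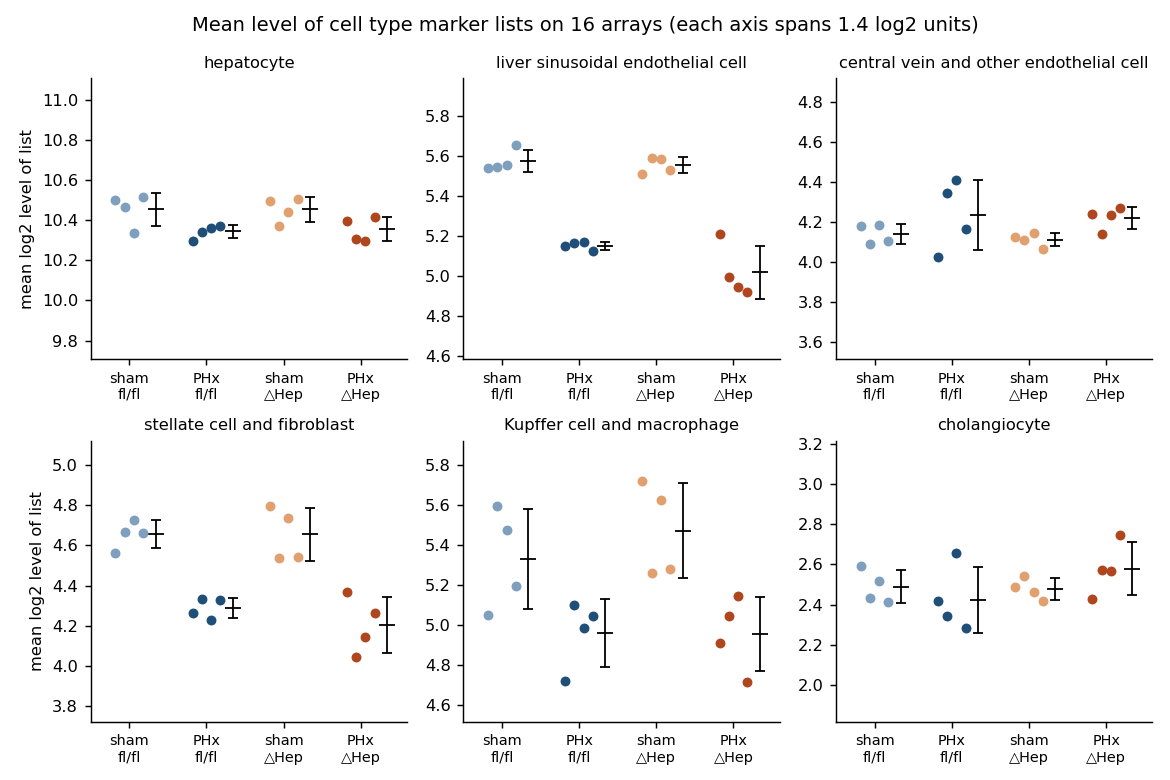
Mean log2 level (vertical axis) of 6 cell type marker lists on each of the 16 arrays (points), with group mean and SD (black bars, n = 4). The sinusoidal endothelial list is lower after PHx in both genotypes, 5.12 to 5.17 against 5.54 to 5.65 in fl/fl. The hepatocyte list has group means of 10.46 after sham and 10.34 after PHx in fl/fl, and 10.45 and 10.35 in Ppara△Hep.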

How the data were processed

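Total RNA of 16 mouse liver samples, in 4 groups of 4, was measured on Affymetrix arrays. The deposited values are log2 levels per probe set and array, made by the authors with RMA, per the submitters' processing notes, which corrects background, normalizes arrays to each other and summarises probes. Which software and genome build made them is not given in the sources used here. RMA equalises distributions over probes, so a shift shared by most genes can be hidden, and values near background understate changes. For arrays, their number limits the precision.

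Of 72688 probe sets, 30604 have 1 gene symbol in the platform annotation, 2146 have several and 39938 carry no name here. Old symbols were replaced by way of Entrez identifiers (827 changed). The probe set with the highest mean over the arrays stood for a gene, leaving 30142 genes. Array columns matched the labels, and 0 columns of samples were left unused. Arrays are numbered in the order of the samples, and no 2 arrays were identical.

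All 16 arrays were fitted together, each group with its own mean, with limma 3.58.1 (lmFit, eBayes) in R 4.3.3 (12 residual degrees of freedom), and p-values were adjusted by Benjamini-Hochberg over the 30142 genes. The script was tested on simulated data. The 95% intervals come from that model, and exact permutation tests are two-sided. Figures were drawn with matplotlib 3.10.9 in Python 3.11.15. Promoters came from a RefSeq table of GRCm38.p6. The genes and the 8 pathway and 9 marker lists were chosen with earlier results of these data known. Named pathway genes are those called with a log2 change of at least 0.58, at most 6 per list and comparison. For each of the growth factor and receptor genes above background in some group, the 3 most correlated genes are named. Alternatives were other scalings, filters, probe set rules, variance models and array exclusions.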

Additional observations from a re-analysis of the deposited data

Results flagged for a closer look

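Of 144 groups of 4 arrays examined over the named genes, 4 (2.78%) held an array set far apart from the other 3 by Dixon's ratio, and chance alone flags about 1 group in 20. Among the growth factor and receptor genes these were Egfr in sham Ppara△Hep, where array 4 read 9.96 and the next array 9.46, and Tgfa in sham fl/fl, where array 1 read 5.03 and the next 5.22. Among the pathway genes they were Cbl in PHx fl/fl, with array 3 at 6.37 and the next at 5.27, and Serpinf2 in PHx Ppara△Hep, with array 1 at 9.25 and the next at 8.83. The 4 values come from 4 different arrays and groups.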

How the results depend on the processing

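No paired analysis was possible because array numbers follow the order of the samples and the labels give groups no shared replicate number. The counts of genes called after PHx moved with scaling and filter: 15420 in fl/fl and 15350 in Ppara△Hep with array medians subtracted, 3134 and 3375 of 6730 with dim genes left out, and 18600 in each with all 72688 probe sets tested. The share of these calls that was higher was 36.5% and 45.8% as reported, 14.8% and 13.9% with array medians subtracted, 56.7% and 53.7% with cyclic loess, 17.0% and 14.1% without dim genes, 56.3% and 61.4% over all probe sets, and 15.0% and 34.7% with negative control medians subtracted, an alternative chosen after seeing the data. Subtracting array medians moved the median change of all genes from -0.04 to -0.15 in fl/fl and from 0.01 to -0.14 in Ppara△Hep. Without dim genes 1 of the growth factor and receptor genes, Met, was called after PHx in each genotype, because Rspo3 and Wnt9b were no longer tested. By exact permutation 1 was called in fl/fl (Rspo3) and 1 between genotypes after PHx (Wnt9b). The genotype count after sham was 1 over all probe sets, 22 with array weights, 38 with only those groups fitted and 8 with negative control medians subtracted, and the count after PHx was 27 with array weights and 0 with only those groups fitted. Leaving out 1 array gave 1 to 3 of the 9 genes called after PHx in fl/fl, 3 to 4 in Ppara△Hep and 0 in the others. Over all genes it gave 7711 to 9663, 7720 to 9556, 1 to 4 by genotype after sham, 14 to 127 after PHx, 0 to 2 for the difference of the changes and 35 to 120 for the average. Of the values of the 9 genes under the alternatives, 974 kept their direction and side of the threshold, 6 lost a call, 7 gained one, 63 changed sign without being called either way, and 0 called values reversed. Low signal over background limits Hbegf, Wnt2, Wnt9b, Rspo3 and Angpt2.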
